A study of Cricetulus griseus with 3 samples.

Results

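Growth factors, the receptor tyrosine kinases that bind them, the ephrins and the insulin-like growth factor (IGF) axis were followed in S-1 cells against DAPT-treated CHO cells. The genes were chosen by name and not by value. A spot of the mouse cDNA array was taken when its annotation gave a single gene symbol beginning with Fgf, Epha or Ephb and a digit, Efna, Efnb, Egf, Erbb, Pdgf, Igf, Insr, Hgf, Kitl, Hbegf, Ddr1 or Ddr2, or reading Kit or Met. The rule also allowed Vegf, Flt, Ntrk and Areg, for which no such spot was analysed here. It gave 123 spots of 70 genes, out of 17664 spots on the array and 8146 genes with a value. Of the 70 genes, 44 had 1 spot and 26 had more, up to 6 for the FGF receptor gene Fgfr2.

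S-1 is a single stable line of Chinese hamster ovary (CHO) cells, derived in steps from the parental line, that overexpresses all 4 subunits of γ-secretase as NCT-GST, PS1, APH1-a2-HA and Flag-PEN2. Its cultures were kept under G418 (200 µg/ml), puromycin (25 µg/ml), zeocin (250 µg/ml), hygromycin (250 µg/ml) and blasticidin (10 µg/ml), and received 0.05% DMSO for 24 h. The other side was the untransfected parental CHO line, grown without these drugs and given 10 µM DAPT, an inhibitor of γ-secretase, in 0.05% DMSO for 24 h. Each of 3 two-colour arrays set 1 S-1 culture against 1 DAPT-treated CHO culture, with the S-1 sample in Cy3 on arrays 1 and 2 and in Cy5 on array 3. The study also marks APP, itself a γ-secretase substrate, as overexpressed in S-1 cells. The line, the transgenes, APP, the selection drugs and the inhibitor change together between the groups, so their shares cannot be told apart. Each hamster RNA was read on mouse clones.

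Every value below is a log2 ratio, S-1 over DAPT-treated CHO, so 1 is a doubling in S-1 and -1 a halving; no level of either side is in the table, and a ratio near 0 does not show that a transcript was present. The direction was not written in the table and was read from the spots of transfected subunits. The Psenen spot (PEN2) gave 2.84, 3.11 and 3.33 on arrays 1, 2 and 3, and the Aph1a spot gave 1.85, 2.17 and 2.04. The Ncstn spot (NCT) averaged 0.38 ± 0.25 (SD, n = 3) and did not pass the test (adjusted p = 0.0352).

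γ-Secretase is a membrane protease that cuts single-pass membrane proteins after their outer part has been shed; Notch is the best known of them, and several receptor kinases and ephrins are substrates too. Receptor tyrosine kinases dimerise when a ligand binds, phosphorylate one another and recruit adaptors that switch on the RAS-MAPK and PI3K-AKT pathways. FGFs need heparan sulfate chains to bind their receptors, ephrins are themselves anchored in the membrane of the neighbouring cell, and IGFs circulate on binding proteins that hold them away from the IGF1 receptor. Cultured lines such as CHO are grown in serum, which supplies growth factors of these families.

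Among the 70 genes, the lowest ratio belonged to Igfbp4, a binding protein that sequesters IGFs, which was 5.36-fold lower in S-1. The receptor gene Met and the gene of its ligand, Hgf, were lower as well, and so was the PDGF receptor gene Pdgfrb on both of its spots. In the other direction, 10 of 19 genes counted as FGF ligands were higher in S-1, where 12.4% of all genes were. None was lower, and Fgf20 stood at 4.24-fold. The count includes the FGF homologous factors Fgf11 to Fgf14, which do not act as ligands of FGF receptors. When the 480 spots whose clones are unknown were left out, 5 of 17 of these genes were higher, where 9.26% of all genes were. They were Fgf8, Fgf11, Fgf13, Fgf14 and Fgf20. By clone collection (P, N and H, described below), 5 of 13 P spots of these genes were higher, beside 19.3% of all P spots. Fgf20 was the only secreted FGF among those 5, and the others were homologous factors. Of the N spots of the 19 genes 1 of 5 was higher, beside 28.1% of all N spots, and of the H spots none of 6, beside 6.76%. Several genes read on more than 1 clone gave readings that disagreed.

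In limma's moderated test of each spot against 0, with Benjamini-Hochberg adjustment over all 16928 tested spots and the threshold of 0.005 that the study used, 23 member spots were higher in S-1, 11 were lower and 89 did not pass. That is 18.7% higher and 8.94% lower, against 9.68% higher (1638 spots) and 8.52% lower (1442 spots) among all tested spots, of which 18.2% passed in either direction. When all spots of a gene were averaged into 1 gene value, 17 of the 70 member genes were higher and 4 were lower; over all 8146 genes, 12.4% were higher and 10.3% were lower. By count over the whole array, higher members exceeded the background at both levels, an excess that within the P, H and unlisted clone collections was absent or slight, and lower members were close to it among spots and below it among gene values. All 34 spots that passed had the same sign on each of the 3 arrays. Their smallest size was 0.41 on the log2 scale, and the 95% interval of a member spot had a median half-width of 0.16. Fewer passed when array 2 was left out (5 of the 34) or when control spots were kept in the fit (17 of the 34), with each mean on the same side of 0. Over all tested spots the share past the threshold was 2.14% without array 2, 7.98% without array 1 and 37.0% without array 3. With control spots kept in, 6.71% of spots passed. The loss of calls without array 2 was thus general and not particular to the members. Values after ± are SDs over the 3 arrays throughout.

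The clones on the array came from collections that are told apart by the first letter of the clone names in the study's lists. The position of a spot on the array was used to assign its collection. Of 2658 listed clones 2514 could be paired to 1 spot, and 2513 of them had the letter assigned there. The assignment was learnt from the same clone names, so this match is no separate check. H clones hold most of the array (15360 tested spots), P clones 960 and N clones 128, and a further 480 spots lie where those lists name no clone (called unlisted here). The ratio of a spot went with its collection. Among unlisted spots 378 of 480 (78.8%) were higher in S-1 and 4 (0.833%) were lower, 79.6% in all, and their median ratio was 1.56. Of the 12 unlisted member spots 8 were higher, none was lower, and the median was 2.11. H clones had a median of 0.00 over all tested spots and -0.01 over the 57 member spots, of which 4 were higher and 8 were lower (21.1% in all); 6.76% and 8.52% of all tested H spots were (15.3% in all). P clones gave 6 higher and 3 lower of 41 member spots, against 19.3% higher and 12.8% lower among all tested P spots, and N clones gave 5 higher and none lower of 13, against 28.1% and 4.69%. The higher share of members was thus 7.02% in H, beside 6.76% of all spots of that collection, 14.6% in P, beside 19.3%, 38.5% in N, beside 28.1%, and 66.7% among unlisted spots, beside 78.8%. By count, the lower member spots of H (14.0%, with 2 of the 8 from Fgfr2) exceeded the 8.52% of all H spots. The higher member spots of N (38.5%, on 13 spots) stood above the 28.1% of all N spots. In either direction the share that passed was 38.5% in N, beside 32.8% of all N spots. In P and among unlisted spots that share, 22.0% and 66.7%, lay below the 32.1% and 79.6% of all spots of the same kind. The study's lists hold only clones that passed there, 2658 in all. None is placed at an unlisted spot, which is how unlisted spots were defined. With unlisted spots left out, 2652 of 16448 spots passed here, 1238 higher and 1414 lower, against 3080 with them in. The counts given here with unlisted spots thus include calls that the study's lists do not hold. Which clones the unlisted spots hold is not known here, and the part of the collection in any 1 ratio was not tested.

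**Figure D1:**
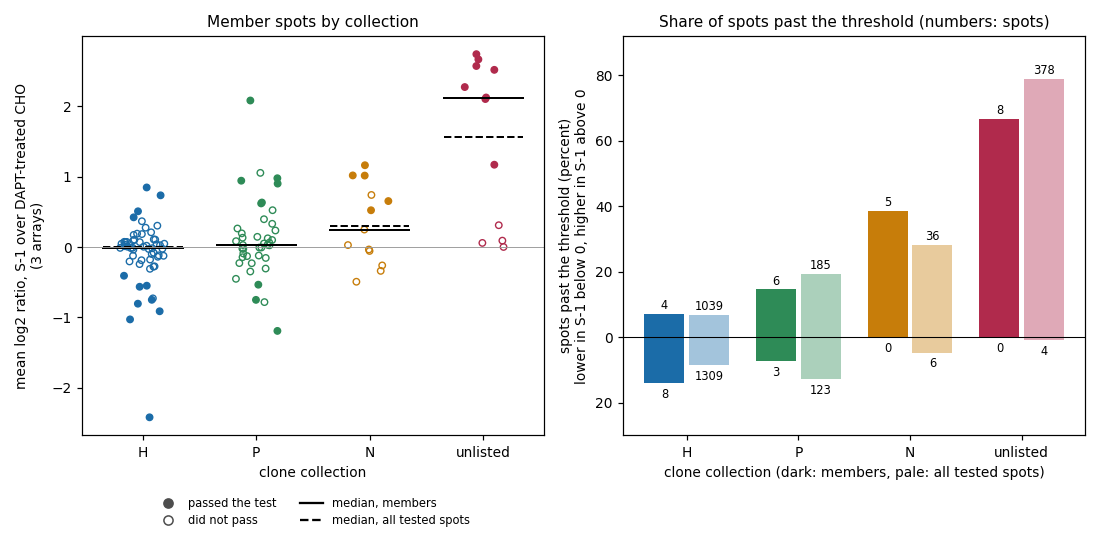
Left, the mean log2 ratio (S-1 over DAPT-treated CHO, 3 arrays) of each of the 123 member spots by clone collection, with the median of the members (solid line) and of all tested spots (dashed line). Right, the percent of spots past the threshold, members dark and all tested spots pale, with the number of spots at each bar; the 8 unlisted members that passed were all higher in S-1 and the 8 lower H members make up most of the 11 lower spots.

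N spots, and less so unlisted spots, read higher on array 3 than on the other arrays; array 3 is the only one with the dyes exchanged, so the array and the dye cannot be told apart. Array 3, with S-1 in Cy5, read higher than the mean of arrays 1 and 2 on all 13 member N spots (median difference 0.62) and on 120 of all 128 N spots (median 0.54). Over the 57 H member spots the median difference was -0.07, over the 41 P member spots 0.05 and over the 12 unlisted member spots 0.32, with array 3 higher on 9 of the 12. Among N spots 6 of 13 had both signs across the 3 arrays: Egf, the founding ligand of its family, read -0.53, -0.09 and 0.45, and the receptor Fgfr3 read -0.82, -0.48 and 0.29. Control spots, left out of the test, ran in opposite directions on arrays 1 and 3, with a correlation of -0.96 over 736 spots; over the 123 member spots that correlation was 0.92. The N spots that passed, those of Fgf8, Fgfr4, Fgfr1, Egfr and Insr, were positive in both dye orientations.

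**Figure D2:**
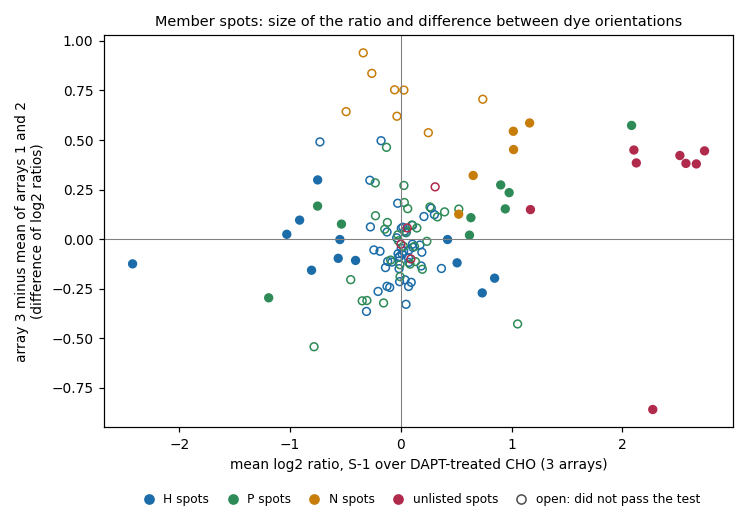
Each point is 1 of the 123 member spots: its mean log2 ratio (S-1 over DAPT-treated CHO) on the horizontal axis and, on the vertical axis, array 3 minus the mean of arrays 1 and 2. Filled points passed the test; all 13 N spots lie above 0, with a median of 0.62, and the unlisted Fgf5 spot is lowest at -0.86.

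FGF ligands, counted with the FGF homologous factors Fgf11 to Fgf14, formed the largest family, with 19 genes on 29 spots. At the level of gene values 10 were higher in S-1 (Fgf1, Fgf5, Fgf6, Fgf7, Fgf8, Fgf10, Fgf11, Fgf13, Fgf14 and Fgf20), none was lower, and 9 did not pass; the background is 12.4% higher. Without unlisted spots 5 of the 17 genes still read (Fgf8, Fgf11, Fgf13, Fgf14 and Fgf20) were higher and none was lower, beside 9.26% higher of all genes. At the level of spots 10 of 29 were higher: 5 of 13 P spots (19.3% of all P spots were), 4 of 5 unlisted spots (78.8%), 1 of 5 N spots (28.1%) and none of 6 H spots (6.76%). The counts of unlisted, N and H spots were thus near what their collections gave. The 5 P spots were those of Fgf20 and of Fgf11 to Fgf14. The H spots, of Fgf1, Fgf10, Fgf12 and Fgf13, lay between -0.28 and 0.18.

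Fgf20, a secreted FGF known from the inner ear and from dopaminergic neurons, was the highest of the P spots, at 1.79, 1.99 and 2.46 on arrays 1, 2 and 3. Its mean was 2.08 ± 0.35 (SD, n = 3; adjusted p = 4.29e-04), 4.24-fold on 1 clone. All 3 arrays lay far from 0, and array 3 was the highest.

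The other P spots of this family that passed were those of the FGF homologous factors, Fgf11 to Fgf14. These proteins stay inside the cell and bind voltage-gated sodium channels in place of FGF receptors, so they are not ligands of those receptors. Fgf11 read 0.78, 1.02 and 1.13, with a mean of 0.98 ± 0.18 (adjusted p = 8.89e-04). Fgf14 read 0.59, 1.03 and 1.08, with a mean of 0.90 ± 0.27 (adjusted p = 0.00272). For both genes array 1 was the lowest and no second clone was on the array.

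Fgf12 and Fgf13 were each read on further clones, which did not follow. The P spot of Fgf12 gave 0.62, 0.57 and 0.70 (adjusted p = 8.24e-04), but its 2 H spots averaged 0.00 and -0.28, and the gene value, 0.12 ± 0.09, did not pass (adjusted p = 0.124). Fgf13 gave 0.60, 0.63 and 0.63 on the P spot (adjusted p = 5.89e-04) and 0.07 ± 0.05 on the H spot. Its gene value, 0.34 ± 0.02, still passed (adjusted p = 0.00266), with the P spot included and the H spot near 0.

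Among the unlisted spots stood secreted FGFs that act between tissues, with ratios from 4.30-fold to 6.69-fold where they passed. Fgf1, the acidic FGF that binds every FGF receptor, read 2.51, 2.67 and 3.04 on the unlisted spot (2.74 ± 0.27, adjusted p = 1.31e-04). The same gene read 0.01 ± 0.04 on an H spot and -0.04 ± 0.37 on an N spot, although the annotation gives all 3 clones the same transcript. The gene value of 0.91 ± 0.20 (adjusted p = 0.00115) therefore rests on 1 clone, and without the unlisted spots it was -0.01 (adjusted p = 0.91).

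Fgf10, a mesenchymal ligand of FGFR2 in lung and limb buds, had the same form. Its unlisted spot gave 2.29, 2.60 and 2.83 (adjusted p = 1.41e-04), its N spot 0.34, 0.67 and 1.21 (adjusted p = 0.021), and its 2 H spots averaged 0.07 and 0.18. All 4 readings were positive in the mean, and they spread over 2.50 log2 units. Without the unlisted spot the gene value was 0.33 (adjusted p = 0.00674), no longer past the threshold.

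Fgf5, known as a brake on hair growth, and Fgf7, the keratinocyte growth factor, were read only on unlisted spots. Fgf5 gave 2.41, 2.71 and 1.70, the only member that passed there with array 3 lowest, and Fgf7 gave 1.73, 2.18 and 2.40. They averaged 2.27 ± 0.52 and 2.10 ± 0.34 (adjusted p = 0.00103 and 4.07e-04). When each collection was centred on its own median they were 0.72 and 0.55 and did not pass (adjusted p = 0.0415 and 0.0105), so their size did not stand clear of the other unlisted spots.

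Fgf8, an organiser signal of the early brain and limb, was the highest N spot at 0.79, 1.14 and 1.55 (1.16 ± 0.38, adjusted p = 0.00323). Fgf6, a muscle FGF, read 0.32, 0.63 and 0.62 on its P spot. Its mean of 0.52 ± 0.18 lay at the threshold, with adjusted p = 0.00561 among spots and 0.00489 among gene values, the same 3 numbers in families of different size, and the gene value did not pass without array 1 (0.00517) or array 2 (0.0316). Fgf4, a ligand of the blastocyst, was the unlisted FGF that stayed near 0, at 0.00, 0.08 and 0.10, with -0.26 ± 0.49 on its N spot.

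The other FGF ligands, Fgf3, Fgf9, Fgf15, Fgf17, Fgf18, Fgf21 and Fgf22, had gene values between -0.10 and 0.26 and none passed. Fgf15 and Fgf21, hormonal FGFs of gut and liver, read 0.06 ± 0.09 and 0.26 ± 0.10. Of the 10 FGF ligand spots that passed, 8 passed again without array 1 (not Fgf12 and Fgf13, adjusted p = 0.00616 and 0.00503), 2 (Fgf1 and Fgf10, both unlisted) without array 2 and all 10 without array 3.

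**Figure D3:**
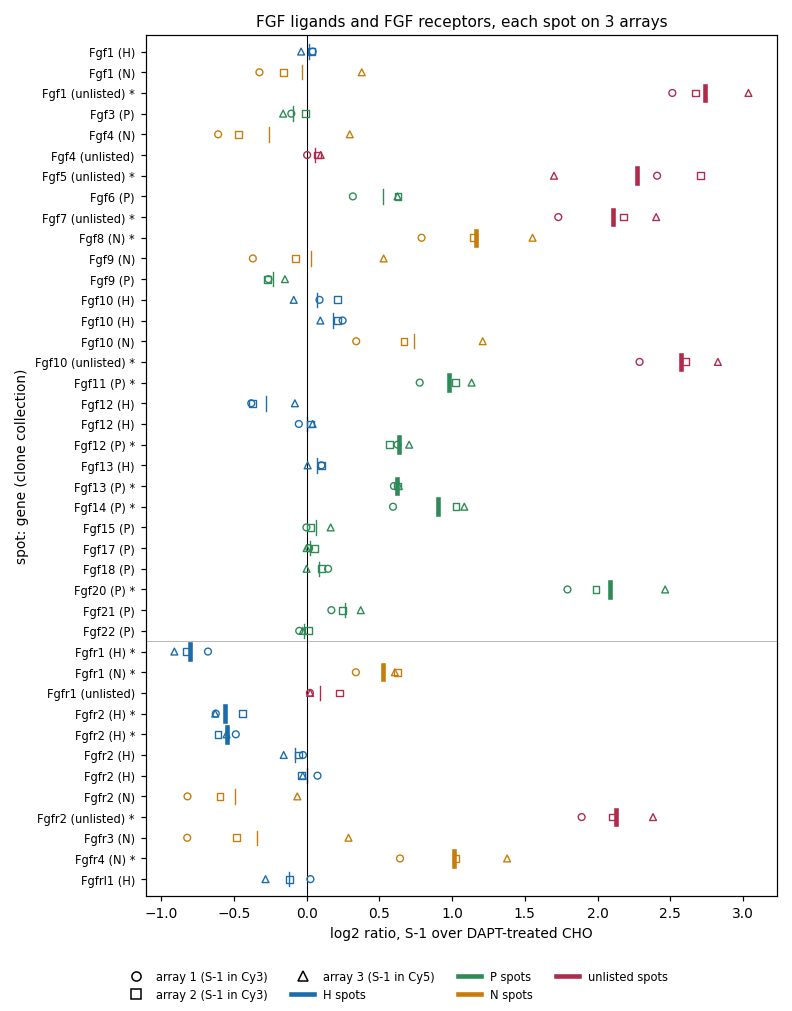
Log2 ratio (S-1 over DAPT-treated CHO) of the 29 FGF ligand spots and, below the grey line, the 12 FGF receptor spots, on array 1 (circle), array 2 (square) and array 3 (triangle), with the mean as a bar, thick and starred where the spot passed the test. Unlisted spots of Fgf1, Fgf5, Fgf7 and Fgf10 lie above 1.5, the H spots of Fgf1 and Fgf10 near 0, and Fgfr1 and Fgfr2 have spots on both sides of 0. The homologous factors Fgf11 to Fgf14 are shown with the ligands.

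FGF receptors were read in both directions: of 12 spots of 5 genes, 3 were higher and 3 were lower, and 1 gene value, that of Fgfr4, passed. Of all tested spots 9.68% were higher and 8.52% were lower, and of all genes 12.4% were higher. All 3 lower spots were H clones and none of the 3 higher spots was. The lower spots were 3 of 6 H spots, beside 8.52% lower of all H spots. The higher spots were 2 of 4 N spots, beside 28.1% of all N spots, and 1 of 2 unlisted spots, beside 78.8%.

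Fgfr1 is the main mesenchymal FGF receptor. Its H spot read -0.68, -0.83 and -0.91 (-0.81 ± 0.12, adjusted p = 7.11e-04), its N spot 0.34, 0.62 and 0.61 (0.52 ± 0.16, adjusted p = 0.00449) and its unlisted spot 0.02, 0.23 and 0.02 (adjusted p = 0.297). The H and N clones thus passed in opposite directions though the annotation names 1 transcript for all 3, and the gene value of -0.06 ± 0.06 did not pass. The N call was lost with each array or each collection centred (adjusted p = 0.00529 and 0.0464), the H call with neither.

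Fgfr2, the receptor of FGF7 and FGF10, had 6 spots. Of its 4 H spots, 1 read -0.63, -0.44 and -0.63 and another -0.49, -0.61 and -0.55 (adjusted p = 0.00182 and 0.00115), while the other 2 averaged 0.00 and -0.08. The unlisted spot read 1.89, 2.10 and 2.38 (2.13 ± 0.25, adjusted p = 1.80e-04), and the N spot averaged -0.49 ± 0.39. With all 6 spots the gene value was 0.07 ± 0.08 (adjusted p = 0.289); with H clones alone it was -0.30 and passed (adjusted p = 0.00478).

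Fgfr4, a receptor best known from liver, was read on 1 N spot only, at 0.64, 1.03 and 1.38 (1.02 ± 0.37, adjusted p = 0.00447). Array 3 was the highest. Of the 3 higher FGF receptor spots only 1 passed again with each array centred, and only 1 with a robust prior. Fgfr3, a brake on bone growth, averaged -0.34 ± 0.57 on an N spot, and Fgfrl1, a receptor that lacks the kinase domain, -0.12 ± 0.15 on an H spot. Fgfr1op2, which matched the rule by its spelling and encodes no receptor, averaged 0.27 ± 0.09 (adjusted p = 0.0142).

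Without array 2 none of the 6 FGF receptor spots passed (adjusted p between 0.00526 for unlisted Fgfr2 and 0.0455 for N Fgfr1); without array 1, 2 of the 3 higher and 1 of the 3 lower did, and without array 3 all 6 did. Every mean kept its sign.

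Of the ErbB receptors, Egfr, the receptor of EGF, was higher on both of its spots. The unlisted spot read 2.41, 2.67 and 2.92 (2.67 ± 0.25, adjusted p = 1.25e-04) and the N spot 0.72, 1.01 and 1.32 (1.02 ± 0.30, adjusted p = 0.00245). Both clones rose on every array, by 6.35-fold and 2.03-fold, and neither belongs to the H or P collections. The N call was lost without array 2 (adjusted p = 0.0282) and the unlisted call was not (0.00439). Erbb3, which has little kinase activity of its own, averaged 0.04 ± 0.12, and Erbb4, a neuregulin receptor and γ-secretase substrate, 0.02 ± 0.03, each on 1 H spot. The ligands Egf and Hbegf averaged -0.06 ± 0.49 and -0.23 ± 0.16 and did not pass.

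PDGF receptors drive the growth of fibroblasts and smooth muscle. Pdgfrb was lower in S-1 on both clones: the H spot read -1.12, -0.95 and -1.01 (-1.03 ± 0.09, adjusted p = 2.34e-04) and the P spot -0.66, -0.46 and -0.49 (-0.54 ± 0.11, adjusted p = 0.0021). It was the only member gene lower on every one of several spots, and its gene value of -0.78 ± 0.10 corresponds to a 1.72-fold lower ratio. Pdgfra read -0.84, -0.94 and -0.40 on an H spot. All 3 arrays were negative, but the spread was larger (-0.73 ± 0.29) and the adjusted p of 0.00637 missed the threshold.

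The ligands of these receptors did not pass on any of 6 spots. Pdgfa averaged -0.21 ± 0.16 on the H spot and -0.16 ± 0.19 on the P spot, and Pdgfb -0.03 ± 0.03. Pdgfc, which is secreted in a latent form, averaged -0.03 ± 0.18, and Pdgfd 0.17 ± 0.03 and 0.11 ± 0.05. The 2 clones of Pdgfa differed by 0.05 log2 units and those of Pdgfd by 0.06.

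Met, the receptor of hepatocyte growth factor and a γ-secretase substrate, read -1.0005, -1.19 and -1.39 on its P spot (-1.19 ± 0.19, adjusted p = 5.68e-04), a 2.29-fold lower ratio in S-1. Its ligand Hgf read -0.73, -0.88 and -0.64 on a P spot (-0.75 ± 0.12, adjusted p = 9.49e-04), 1.68-fold lower. Receptor and ligand were thus both below 0 on every array, each from 1 clone. The second pair of this kind, the stem cell factor receptor Kit and its ligand Kitl, did not pass on any of 4 and 3 spots, which lay between -0.18 and 0.19. Ddr2, a collagen-binding receptor kinase, averaged -0.14 ± 0.10.

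Among all tested spots 2.14% passed without array 2, and the calls in the PDGF, KIT and MET families were lost without it as well. Without it Pdgfrb gave -1.07 on the H spot and -0.57 on the P spot (adjusted p = 0.00586 and 0.0226), Met -1.20 (0.0116) and Hgf -0.69 (0.0131). Without array 1 the P spot of Pdgfrb (adjusted p = 0.0112) and Hgf (0.00544) did not pass, and Met and the H spot of Pdgfrb did; without array 3 all 4 passed.

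Eph receptors guide cell positioning by binding ephrins on neighbouring cells, class A receptors mainly ephrin-As and class B receptors mainly ephrin-Bs. Of 10 receptor genes on 12 spots, 1 spot was higher, 1 was lower and 10 did not pass. Of all tested spots 9.68% were higher and 8.52% were lower. The higher spot was 1 of 10 P spots, and of all P spots 19.3% were higher and 12.8% were lower. The lower spot was 1 of 2 H spots, beside 8.52% lower of all H spots. Ephb6, a receptor without kinase activity, read 0.77, 1.01 and 1.04 on the P spot (0.94 ± 0.15, adjusted p = 6.65e-04) and 0.03, 0.04 and -0.12 on the H spot (-0.02 ± 0.09). The gene value of 0.46 ± 0.06 passed (adjusted p = 0.00151), with only the P clone away from 0.

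Epha2, a receptor of epithelial and tumour cells, read -0.39, -0.36 and -0.48 on the H spot (-0.41 ± 0.06, adjusted p = 0.00286) and averaged -0.15 ± 0.05 on the P spot. Both clones were negative on every array, and the gene value of -0.28 ± 0.02 missed the threshold narrowly (adjusted p = 0.00516). Epha4, a γ-secretase substrate, averaged 0.19 ± 0.14 on its P spot, and Ephb4, a receptor of veins, 0.33 ± 0.11 (adjusted p = 0.01). The other receptors, Epha1, Epha5 to Epha8 and Ephb3, lay between -0.01 and 0.23.

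No ephrin-A gene passed, but 4 of the 5 were negative on all 3 arrays. Efna3 was lowest at -0.57, -0.64 and -1.15 (-0.78 ± 0.32, adjusted p = 0.00655), and Efna2 read -0.29, -0.48 and -0.59 (-0.45 ± 0.15, adjusted p = 0.00637). Efna1, an early response gene of endothelium, averaged -0.31 on its H and on its P clone, and Efna4 averaged -0.35 ± 0.18. On each of these 4 genes array 3 was the lowest, and the values stayed outside the calls.

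Efna5, a repulsive guide of growing axons, was the exception, with 5 spots on both sides of 0. Its H spots averaged 0.30, 0.21, -0.24 and -0.27. The P spot read 0.47, 1.92 and 0.77, with array 2 far above the others, and averaged 1.05 ± 0.77 (adjusted p = 0.0367).

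Ephrin-Bs signal through a cytoplasmic tail, and Efnb1 and Efnb2 are γ-secretase substrates. Efnb1 read 0.29, 0.41 and 0.49 on a P spot; its mean of 0.39 ± 0.10 passed as a gene value (adjusted p = 0.00415) and not as a spot (0.00505). Efnb2 averaged 0.05 ± 0.02, and Efnb3 0.14 ± 0.05 and 0.03 ± 0.04. As gene values Ephb6 and Efnb1 did not pass without array 1 (adjusted p = 0.01 and 0.013) or without array 2 (0.0173 and 0.034), and Epha2's H spot was also lost without either (0.0197 and 0.0306).

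**Figure D4:**
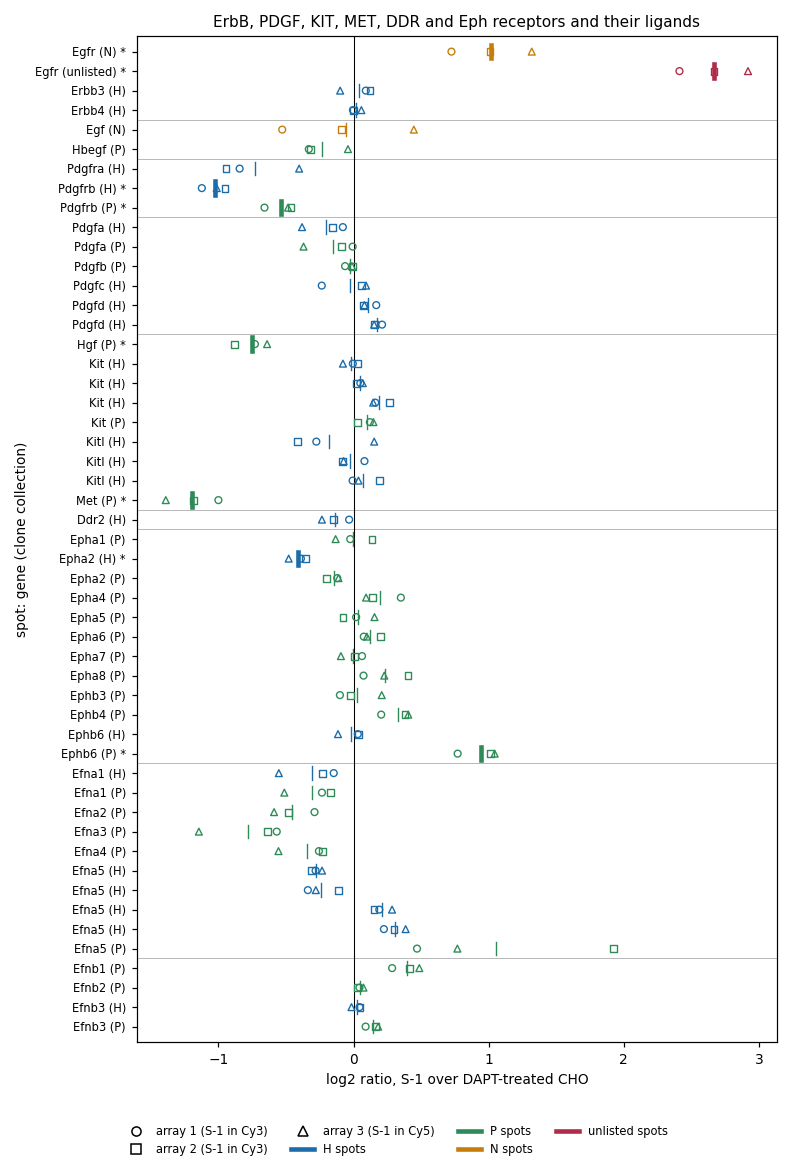
Log2 ratio (S-1 over DAPT-treated CHO) of the ErbB, PDGF, KIT, MET, DDR and Eph receptor spots and their ligands on array 1 (circle), array 2 (square) and array 3 (triangle), with the mean as a bar, thick and starred where the spot passed. The unlisted Egfr spot lies highest at 2.67, Met lowest at -1.19, Pdgfrb below 0 on both clones, and the P spot of Efna5 spreads from 0.47 to 1.92.

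In the IGF axis the binding protein Igfbp4 was the lowest of all 123 spots. It read -2.30, -2.46 and -2.50 on its H spot, a mean of -2.42 ± 0.11 (95% interval -2.57 to -2.27 as a gene value; adjusted p = 1.17e-04). The 3 arrays lay close together, and Igfbp4 was the only lower spot among the members to pass with any 1 array left out (adjusted p = 0.0043 without array 2). The other binding proteins, which differ in whether they hold IGFs back or carry them, did not pass: Igfbp1 averaged -0.13 ± 0.29, Igfbp3 -0.12 ± 0.10 and Igfbp5 -0.10 ± 0.15.

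Igf1, the growth hormone-dependent ligand, repeated the pattern of Fgf1. Its unlisted spot read 2.31, 2.45 and 2.80 (2.52 ± 0.25, adjusted p = 1.35e-04), its N spot -0.03, 0.17 and 0.61, and its 2 H spots averaged 0.03 and -0.12. The gene value of 0.67 ± 0.13 passed (adjusted p = 0.00129), and without the unlisted spot it was 0.05 (adjusted p = 0.448).

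Igf2, the fetal ligand, was read on 2 H spots and 1 P spot. The first H spot read 0.51, 0.59 and 0.43 (0.51 ± 0.08, adjusted p = 0.00179) and the second 0.36, 0.47 and 0.27 (0.37 ± 0.10, adjusted p = 0.0066), while the P spot averaged -0.12 ± 0.07. The H clones were above 0 on every array and the P clone below it on every array. The gene value of 0.25 ± 0.06 missed the threshold (adjusted p = 0.01), and with H clones alone it was 0.44 and passed (0.00296).

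The receptors split by clone in the same way. Igf1r, a γ-secretase substrate, read -0.79, -0.91 and -0.55 on 1 H spot (-0.75 ± 0.18, adjusted p = 0.00194); its second H spot averaged 0.07, its P spot 0.13 and its unlisted spot 0.00. Igf2r, which clears IGF2 and sorts lysosomal enzymes, read -0.98, -0.91 and -0.85 on 1 H spot (-0.91 ± 0.07, adjusted p = 2.69e-04), and -0.04 and -0.01 on the other 2 H spots, with 0.31 ± 0.15 on the unlisted spot. For each gene 1 clone of several was lower, and neither gene value passed (-0.14 ± 0.07 for Igf1r and -0.16 ± 0.05 for Igf2r). With H clones alone Igf1r was -0.34 and passed (adjusted p = 0.00429), and Igf2r was -0.32 and did not (0.0052). With each collection centred, which lowers the unlisted spot of each gene, both passed as lower (-0.54 and -0.55, adjusted p = 0.00114 and 6.83e-04).

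Insr, the insulin receptor and a γ-secretase substrate, was higher on both clones. The unlisted spot read 0.97, 1.27 and 1.27 (1.17 ± 0.18, adjusted p = 4.80e-04) and the N spot 0.48, 0.61 and 0.87 (0.65 ± 0.20, adjusted p = 0.00342). Both exceeded 0 on every array, but the unlisted spot lay below the 1.56 median of its kind, and with each collection centred it turned to -0.38 (adjusted p = 0.00399) and the N spot to 0.35 (0.00538).

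The IGF2 mRNA binding proteins bind fetal transcripts such as that of Igf2, and all 9 of their spots were H clones. Igf2bp3 read 0.95, 0.87 and 0.72 on 1 spot (0.85 ± 0.12, adjusted p = 6.35e-04) and 0.91, 0.74 and 0.55 on a second (0.73 ± 0.18, adjusted p = 0.00193), against 0.11 and -0.19 on the other 2. Its gene value of 0.37 ± 0.07 passed (adjusted p = 0.00322). Igf2bp1 passed on 1 of 5 spots, at 0.45, 0.39 and 0.42 (adjusted p = 0.00194), with the others between -0.01 and 0.10.

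Calls in the IGF axis other than Igfbp4 and the unlisted Igf1 spot were lost without array 2: the H spot of Igf2r gave -0.92 (adjusted p = 0.00821), that of Igf1r -0.67 (0.0205), that of Igf2 0.47 (0.0259), Igf2bp1 0.44 (0.0281), the Igf2bp3 spots 0.83 and 0.73 (0.0136 and 0.0258) and the Insr spots 1.12 and 0.67 (0.00981 and 0.0335). Every one of them passed without array 3. Without array 1 the spots of Igf1r (adjusted p = 0.0101), Igf2 (0.0125), Igf2bp1 (0.0179), the lower of the Igf2bp3 spots (0.00705) and the N spot of Insr (0.00645) were lost too, and so were the gene values of Igf1 (0.00522) and Igf2bp3 (0.0274).

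**Figure D5:**
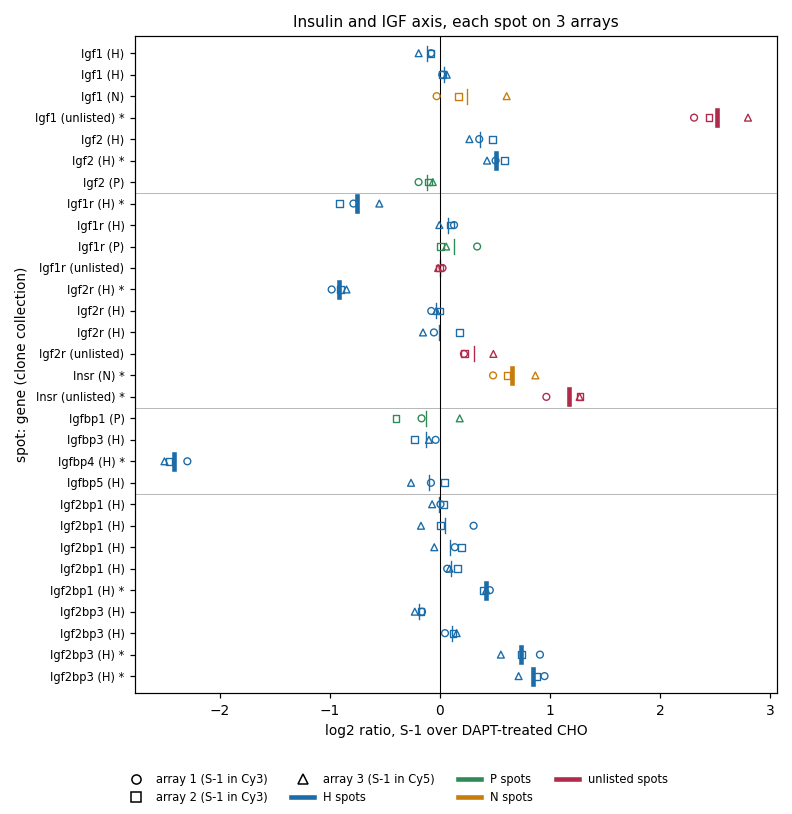
Log2 ratio (S-1 over DAPT-treated CHO) of the insulin and IGF ligand, receptor, binding protein and Igf2bp spots on array 1 (circle), array 2 (square) and array 3 (triangle), with the mean as a bar, thick and starred where the spot passed. Igfbp4 lies lowest at -2.42, the unlisted Igf1 spot highest at 2.52, and Igf1r and Igf2r each have 1 lower H clone beside others near 0.

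Agreement between clones of 1 gene could be read for the 26 genes with over 1 spot. The distance between the highest and the lowest spot had a median of 0.59 log2 units, was under 0.3 for 8 genes and over 1 for 9, and reached 2.78 for Fgf1. Of 17 genes with at least 1 spot past the threshold, 3 (Egfr, Insr and Pdgfrb) passed in 1 direction on every spot and 2 (Fgfr1 and Fgfr2) passed in both directions on different spots. Of 10 genes with an unlisted spot beside another, the unlisted spot was the highest in 8. Clones of 1 gene share their RNA samples and are no replicates of the cultures.

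The members known as γ-secretase substrates moved in no common direction: as gene values Insr and Efnb1 were higher, Met was lower, and Igf1r, Epha4, Efnb2 and Erbb4 did not pass. That is 2 higher and 1 lower of 7 measured, beside 12.4% higher and 10.3% lower of all genes. With each collection centred the Insr value was -0.0154 (adjusted p = 0.785), and Efnb1 did not pass as a spot (0.00505). On H clones alone the Igf1r value was lower (-0.34, adjusted p = 0.00429). Of these 7 genes, 2 had H clones under that single symbol in the annotation used here, Igf1r and Erbb4, and 1 H spot of Igf1r passed. The study's own table of substrates gives EPHA4 as lower in S-1 on an H clone. That clone is no member under the rule, and the Epha4 value given here is from a P spot.

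Genes outside the rule but on the same pathways were described from lists, whose counts stand beside 12.4% higher and 10.3% lower of all genes, and 8.00% and 10.7% of all genes on H clones alone. Of 17 further receptor tyrosine kinases 8 had a value, 1 higher and 2 lower in S-1. Axl, a receptor of GAS6, read -0.85, -0.75 and -0.63 (adjusted p = 7.15e-04), Tyro3 of the same family averaged -0.63 ± 0.07 over 3 spots that disagreed (-0.95 on an H clone and -0.93 on a P clone, both past the threshold, and 0.00 on a second H clone, adjusted p = 0.988), and the angiopoietin receptor Tek averaged 0.61 ± 0.10 on a P spot. Of 24 further ligands 8 had a value: Ereg, an EGF family ligand, was higher (0.45 ± 0.10) and Csf1, the macrophage growth factor, was lower (-1.12 ± 0.19, with both clones past the threshold). Both lists had medians of -0.03, beside 0.01 over all genes.

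Downstream adaptors and kinases of the RAS-MAPK and PI3K-AKT pathways gave 9 higher and 3 lower of 27 measured (12.4% and 10.3% over all genes), at a median of 0.11. All 9 higher genes included an unlisted spot: Irs2 (2.14 ± 0.29), Crkl (1.85 ± 0.27), Pik3r2 (1.78 ± 0.04) and Gab1 (1.02 ± 0.07) led, and the unlisted spot of Gab1 averaged 1.98 where its H spot averaged 0.07. With H clones alone 1 of 21 was higher and 4 were lower, where 8.00% and 10.7% of all genes were.

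Feedback inhibitors and immediate early targets of receptor kinases had 1 higher and 4 lower genes of 15 measured (12.4% and 10.3% over all genes), at a median of -0.24. Egr1 was lowest, at -1.83 on its H spot and -1.01 on its unlisted spot, both past the threshold (gene value -1.42 ± 0.09, adjusted p = 1.48e-04). Errfi1, which inhibits EGFR, averaged -1.20 ± 0.17, Etv5, an ETS factor induced by FGF signalling, -1.01 ± 0.10, and the cyclin gene Ccnd1 -0.97 ± 0.01 on an H and an N clone that both passed. Fos was higher only through its unlisted spot (2.04), with -0.31 on its H spot. With H clones alone 4 of 12 were lower and none was higher, beside 10.7% lower and 8.00% higher among all genes on H clones.

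Heparan sulfate carriers and their enzymes, which present FGFs to their receptors, had 2 higher and 4 lower genes of 11 measured (12.4% and 10.3% over all genes), at a median of -0.29. Ndst2, a sulfotransferase of the chain, averaged -1.04 ± 0.24, and the syndecan gene Sdc1 -0.95 ± 0.11 with all 3 clones past the threshold. Gpc1, a glypican, averaged -0.74 ± 0.17, and Sdc4 -0.51 ± 0.09. The higher genes were the syndecan gene Sdc2 (0.31 ± 0.03, adjusted p = 0.00373) and the glypican gene Gpc3 (0.35 ± 0.06, adjusted p = 0.00345), and their clones disagreed. Sdc2 averaged 0.63 on a P clone and 0.31 and -0.01 on H clones. Gpc3 averaged 0.89 on a P clone, and 0.07 and 0.10 on H clones that did not pass. With H clones alone 4 of 11 were lower and none was higher, beside 10.7% and 8.00% of all genes.

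Of the 6 listed markers of fibroblast and mesenchymal cells, all with a value, 4 were lower in S-1 (Dcn at -2.13 ± 0.26, Fn1 at -2.11 ± 0.07, Col3a1 at -1.31 ± 0.08 and Vim at -1.04 ± 0.08), where 10.3% of all genes were lower. The other 2 were collagen I genes above 0 in the mean that did not pass, Col1a2 at 0.25 ± 0.05 (adjusted p = 0.00986) and Col1a1 at 0.06 ± 0.21 (adjusted p = 0.579). The part of the 4 lower markers in the ratios of Pdgfrb, Met, Hgf and Igfbp4 was not tested. Of the other lists, beside 12.4% higher and 10.3% lower of all genes, neurons and glia had 1 higher and 1 lower of 3 measured, blood and immune cells 1 higher of 2, liver 3 higher and 1 lower of 5, and pancreas and gut 4 higher of 8. Of these higher markers Snap25, Apoa2 and Ins2 were read only on unlisted spots, of which 78.8% were higher whatever the gene. Others were read only on P spots, of which 19.3% were higher: Afp (2.10 ± 0.15), Gast (2.06 ± 0.18), Sst (0.91 ± 0.20), Cd14 (0.65 ± 0.10) and Cela1 (0.37 ± 0.05). Apoa1 (1.08 ± 0.08) was read on an H and an unlisted spot.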

How the data were processed

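Total RNA of 3 S-1 and 3 DAPT-treated CHO cultures was amplified, labelled and hybridised to a mouse cDNA array, 1 culture of each kind per array, with the dyes exchanged on array 3. The deposited values are log2 ratios to which the authors applied a lowess correction within each print-tip group, with no background subtracted; signal intensities were not used here, so the brightness behind a ratio is unknown and the number of arrays limits the precision. All 3 columns correlate positively (0.88 to 0.96 over tested spots).

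From these values each spot, and each gene as the mean of its spots, was fitted with limma 3.58.1 (lmFit and eBayes, R 4.3.3) against 0, with Benjamini-Hochberg adjustment over 16928 spots or 8146 genes and a threshold of 0.005. The 736 spots at the 23 positions that carry no gene name in any of 32 print blocks were taken as controls and left out. Simulated data were used to test the script. Of the member symbols, 65 of 70 are also gene symbols of the hamster RefSeq table (assembly CriGri-PICRH-1.0). A further 3 spots name several genes, 1 of which matches the rule, and are no members.

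The members and lists were chosen with earlier results of these data known. Named genes are all members past the threshold, the extremes, members with discordant clones, the γ-secretase substrates and up to 4 genes of each further list (adaptors, feedback genes, heparan sulfate genes, other receptors and ligands; cell type markers by count). Alternatives for the spots were 14 and for gene values 15: another threshold, centring, scaling, quantile normalisation, H clones alone, a dye coefficient, array weights, a robust prior, the median of spots, control spots included, each array left out and, added after seeing the data, unlisted spots left out.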

Additional observations from a re-analysis of the deposited data

How the results depend on the processing

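Each array sets an S-1 culture against a DAPT-treated CHO culture, so each ratio is already a pair. The fit tests this 1 group of ratios against 0. Of the 34 member spots past the threshold, 34 passed again in the same direction with scaling, quantile normalisation, a dye coefficient or array weights, 32 with each array centred or a robust prior, 29 with each collection centred, 17 with control spots included, and 21, 5 and 34 without array 1, 2 and 3. The 23 higher and 11 lower member spots became 37 and 22 at an adjusted p of 0.05, 35 and 25 with a dye coefficient, and 12 and 5 with control spots included. Higher spots numbered 4 on H clones alone and 15 without unlisted spots; lower spots numbered 17 with each collection centred and 19 with array weights. With 1 array left out higher spots ranged from 4 to 31 and lower spots from 1 to 23. The 17 higher genes became 2 on H clones alone, 11 without unlisted spots and 4 to 20 with 1 array left out. The 4 lower genes became 11 at 0.05, 7 with quantile normalisation, 10 with each collection centred, 12 with a dye coefficient, 9 with array weights and 3 to 12 with 1 array left out. In the pathway lists the 14 higher genes became 5 with each collection centred, 2 on H clones alone, 5 without unlisted spots and 5 to 17 with 1 array left out, and the 14 lower genes became 24 at 0.05, 24 with a dye coefficient and 6 to 22. Over all tested spots 3080 passed, against 6733 at 0.05, 6835 with a dye coefficient, 5393 with array weights, 1186 with control spots included and 363 to 6265 with 1 array left out. The sign turned for the gene values of Ephb6 (-0.0159) and Igf1 (-0.0420) on H clones alone, Fgf1 without unlisted spots (-0.0115), Igf1r by the median of its spots (0.0209), Insr with each collection centred (-0.0154, and -0.384 for its unlisted spot) and Erbb4 without array 3 (-0.0022, up to 0.0290 without array 1). Fewer arrays or spots enter the fits that leave some out; the causes of the other changes were not tested.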
